A study of Mus musculus with 15 samples.

Results

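The genes described here are 35 genes of cholesterol synthesis, its control by SREBP and LXR, cholesterol efflux and fatty acid synthesis. The rule that names them uses no measured value, and they make up 35 of the 55385 genes in the count table. All 35 passed the filter on low counts, a CPM (a gene's counts scaled by the library total) over 1 in at least 2 libraries, which kept 13005 genes.

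Macrophages grown from the bone marrow of 6 wk old BALB/c mice (BMDMs) were kept for 2 h in serum-free DMEM alone, in 20 ng/mL recombinant mouse GM-CSF (rmGM-CSF) or in 4T1 CM, and their RNA was sequenced. 4T1 CM is medium conditioned by serum-starved tumor cells of the mouse mammary line 4T1, which the paper says was collected without serum. The donors were 2 STAT5 fl/fl mice (112 and 113), which carry floxed Stat5 alleles, and 3 STAT5 cKO mice (114, 115 and 116), in which Csf1r-iCre, a driver active in myeloid cells, deletes these alleles. All mice were female, and a further STAT5 fl/fl replicate was left out by the study after quality control. Each mouse gave 1 library per treatment, so there were 15 libraries in 6 groups of 2 or 3, and libraries with the same mouse number are paired. The comparisons ask how these genes respond to each stimulus and whether the response depends on STAT5.

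Cholesterol is built from acetyl-CoA through mevalonate, farnesyl diphosphate and squalene. When sterols run low in the endoplasmic reticulum, SCAP carries the SREBP transcription factors to the Golgi for activation, and SREBP then turns on the genes of sterol and fatty acid synthesis; INSIG proteins hold SCAP back when sterols are plentiful. When sterols accumulate, oxysterols activate the nuclear receptors LXR alpha and LXR beta, and macrophages export cholesterol through the transporters ABCA1 and ABCG1.

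Library totals ranged from 16016736 to 22883108 counts. The floxed genes were lost as labelled: Stat5a lay between 29.0 and 45.1 and Stat5b between 60.9 and 77.8 normalized CPM in the STAT5 fl/fl libraries, and no STAT5 cKO library held more than 3 and 4 counts of them. All 10 macrophage markers were present, with a summed level of 25135 to 30534 normalized CPM in the STAT5 fl/fl libraries and 31654 to 47360 in the STAT5 cKO libraries. That gap came from Lyz2 (17036 to 19703 against 23365 to 34471), and the sums of the other 9 markers overlapped (8045 to 10831 against 8289 to 12889). Of the 10, 6 were above 0 in STAT5 cKO against STAT5 fl/fl macrophages with DMEM and 4 with rmGM-CSF and with 4T1 CM, with median log2 differences of 0.11, -0.05 and -0.04. Summed markers of lymphocytes and NK cells, neutrophils, dendritic cells, mast and erythroid cells, stromal cells and adipocytes, and epithelial cells each stayed at or below 4.39 normalized CPM, and 4 keratins that mark epithelial cells were at or under the floor of 3 counts in every library. The epithelial sum was mostly Cdh1 and reached 3.16 to 4.39 with 4T1 CM, 1.18 to 1.43 with rmGM-CSF and at most 0.137 with DMEM in STAT5 fl/fl macrophages, and 1.23 to 2.17, at most 0.049 and at most 0.0435 in STAT5 cKO macrophages. The part of the macrophage and epithelial markers in the results was not tested. In bulk RNA, fewer cells of a type and less RNA per cell cannot be told apart. The 4T1 CM library of STAT5 cKO mouse 115 stood apart for the sterol genes, and results that rest on it are given with and without it.

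Levels below are CPM normalized with relative log expression factors, listed in the order of mice 112 and 113 for STAT5 fl/fl and 114, 115 and 116 for STAT5 cKO. Fold changes are on the log2 scale with their standard error, from edgeR's quasi-likelihood test over all 13005 genes, and a gene was called at an adjusted p under 0.01. The comparisons of rmGM-CSF and 4T1 CM with DMEM in a genotype share the DMEM libraries.

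More of the 35 genes were called between treatments than between genotypes. With 4T1 CM against DMEM, 17 genes rose and 2 fell in STAT5 fl/fl macrophages, where 19.2% of all tested genes rose and 18.2% fell. In STAT5 cKO macrophages 16 rose and 2 fell, against 19.3% and 18.4% of all genes. The median log2 change of the 35 genes was 0.49 and 0.41, while that of all genes was 0.02 and 0.01. The 16 genes that rose in STAT5 cKO macrophages all rose in STAT5 fl/fl macrophages too. With rmGM-CSF against DMEM, 6 genes rose and 2 fell in each genotype. The share of all genes that rose was 15.9% and the share that fell 12.6% in STAT5 fl/fl macrophages, and 13.3% and 10.2% in STAT5 cKO macrophages, so the members' share that rose was near the background. Between the stimuli, 8 genes were higher and 3 lower with 4T1 CM than with rmGM-CSF in STAT5 fl/fl macrophages (13.8% and 16.7% of all genes), and 9 were higher and 2 lower in STAT5 cKO macrophages (16.6% and 17.5%). Of the 35 genes, 21 were called in at least 1 comparison and 14 in none. With 4T1 CM against DMEM alone, 37.4% of all tested genes were called in STAT5 fl/fl and 37.6% in STAT5 cKO macrophages. The count of 21 is therefore not read as a trait of these genes.

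**Figure D1:**
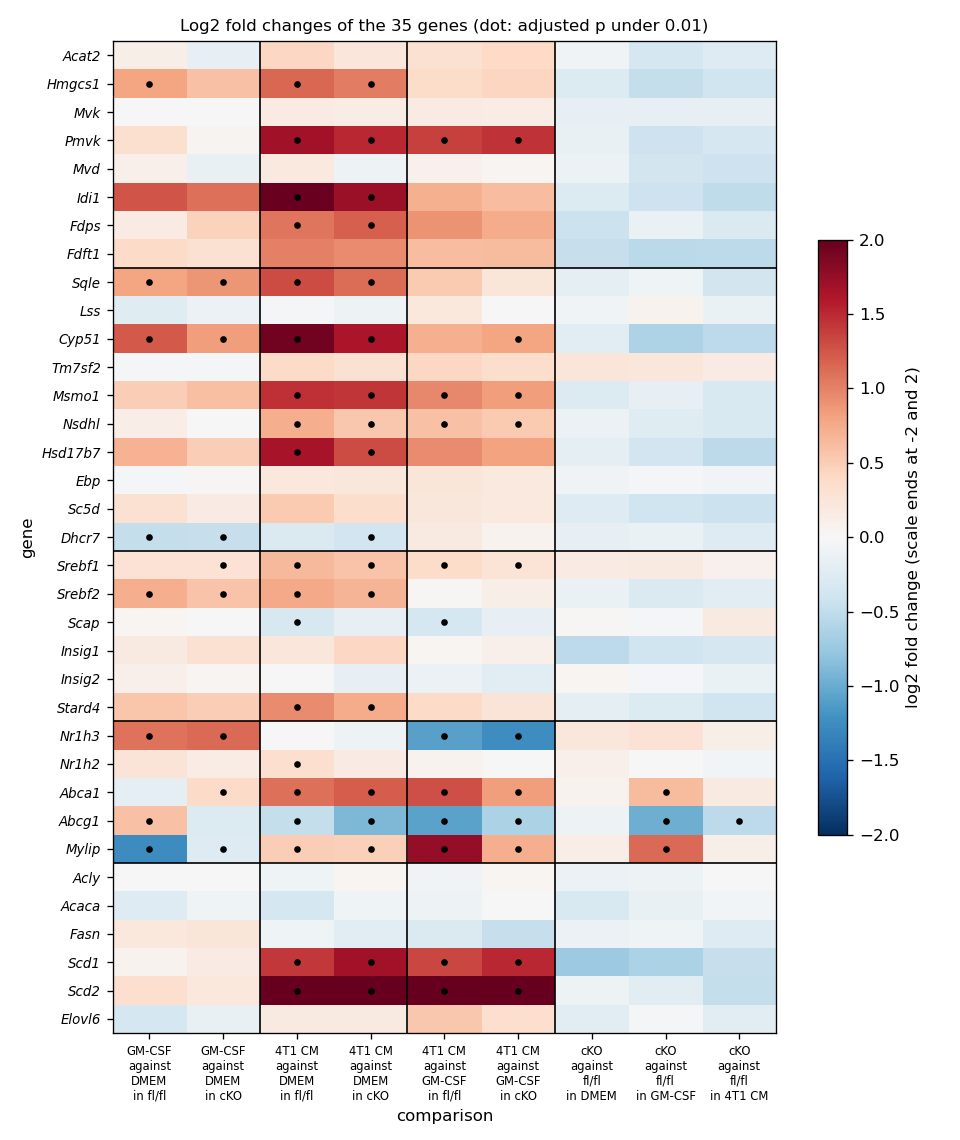
Log2 fold changes of the 35 genes (rows, grouped by role) in 9 comparisons (columns), with a dot where the adjusted p was under 0.01; the color scale ends at -2 and 2. Pmvk, Idi1, Cyp51, Msmo1, Scd1 and Scd2 are deep red with 4T1 CM in both genotypes, Nr1h3 is red with rmGM-CSF, and the genotype columns on the right hold 4 dots in all, on Abca1, Abcg1 and Mylip.

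Among the enzymes from acetyl-CoA to squalene, Hmgcs1 makes HMG-CoA, the precursor of mevalonate. In STAT5 fl/fl macrophages it stood at 66.8 and 68.2 with DMEM, 108 and 125 with rmGM-CSF and 164 and 136 with 4T1 CM. The STAT5 cKO libraries stood at 54.1, 57.7 and 55.8 with DMEM, 86.1, 87.6 and 77.9 with rmGM-CSF and 90.9, 165 and 84.2 with 4T1 CM. Every stimulated library was above every DMEM library, and with 4T1 CM mouse 115 lay with the STAT5 fl/fl mice, far above mice 114 and 116. The rise with 4T1 CM was called in STAT5 fl/fl macrophages (log2 fold change 1.15 ± 0.21, edgeR adjusted p = 0.000236) and in STAT5 cKO macrophages (log2 fold change 1.02 ± 0.17, edgeR adjusted p = 0.000107). With rmGM-CSF it was called in STAT5 fl/fl macrophages (log2 fold change 0.79 ± 0.21, edgeR adjusted p = 0.00706), while the STAT5 cKO value was 0.59 (edgeR adjusted p = 0.0155).

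Pmvk, phosphomevalonate kinase, had the largest difference between the stimuli among the 18 sterol enzymes. Its levels in STAT5 fl/fl macrophages were 15.2 and 14.1 with DMEM, 18.3 and 18.1 with rmGM-CSF and 50.8 and 43.0 with 4T1 CM. The STAT5 cKO levels were 13.5, 12.4 and 13.6 with DMEM, 14.1, 14.6 and 12.1 with rmGM-CSF and 35.8, 43.9 and 32.3 with 4T1 CM. All 5 libraries with 4T1 CM lay above all others, at 3.21-fold the DMEM level in STAT5 fl/fl (log2 fold change 1.68 ± 0.13, edgeR adjusted p = 1.01e-08) and 2.83-fold in STAT5 cKO macrophages (log2 fold change 1.5 ± 0.11, edgeR adjusted p = 3.44e-09). Pmvk was also higher with 4T1 CM than with rmGM-CSF in both genotypes (STAT5 fl/fl log2 fold change 1.37 ± 0.13, edgeR adjusted p = 2.54e-07; STAT5 cKO log2 fold change 1.45 ± 0.11, edgeR adjusted p = 9.96e-09).

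Idi1, which isomerizes isopentenyl diphosphate, was a low gene with a large change. It rose from 2.41 and 3.12 with DMEM to 11.6 and 10.1 with 4T1 CM in STAT5 fl/fl macrophages and from 2.53, 2.48 and 1.94 to 5.77, 12.6 and 4.67 in STAT5 cKO macrophages. The 4T1 CM libraries lay above the DMEM libraries in each genotype, with mouse 115 the highest of all 15 libraries. The changes were called in both (STAT5 fl/fl log2 fold change 1.97 ± 0.35, edgeR adjusted p = 0.000153; STAT5 cKO log2 fold change 1.73 ± 0.31, edgeR adjusted p = 0.000155). With rmGM-CSF it stood at 6.29 and 6.92 in STAT5 fl/fl and at 4.37, 5.58 and 4.92 in STAT5 cKO macrophages, also above DMEM in each genotype, but was not called (edgeR adjusted p = 0.0155 and 0.0169). With the mouse as a replicate block these were called (log2 fold change 1.25, edgeR adjusted p = 0.00124, and 1.07, edgeR adjusted p = 0.00192).

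Fdps, farnesyl diphosphate synthase, rose with 4T1 CM in STAT5 fl/fl (log2 fold change 1.07 ± 0.28, edgeR adjusted p = 0.00468) and STAT5 cKO macrophages (log2 fold change 1.2 ± 0.25, edgeR adjusted p = 0.000656). Fdft1, squalene synthase, stood at 15.7 and 17.6 with DMEM and 37.9 and 29.1 with 4T1 CM in STAT5 fl/fl macrophages, and at 9.15, 13.5 and 13.7 with DMEM and 18, 39.7 and 12.6 with 4T1 CM in STAT5 cKO macrophages. With 4T1 CM mouse 116 was below its own DMEM level and mouse 114 above it, while mouse 115 exceeded both STAT5 fl/fl libraries. Fdft1 was not called in either genotype (log2 fold change 1.01 and 0.94, edgeR adjusted p = 0.0185 and 0.012), and it was called in both with the replicate block (log2 fold change 1.0, edgeR adjusted p = 0.0028, and 0.86, edgeR adjusted p = 0.00301). Acat2, which joins acetyl-CoA units, the kinase Mvk and the decarboxylase Mvd were called in no comparison, with log2 changes of 0.41, 0.16 and 0.19 for 4T1 CM in STAT5 fl/fl macrophages. Acat2 has a close paralog in the mouse, so its counts are uncertain.

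Pmvk kept its 4T1 CM calls in both genotypes under all 14 alternatives, as did Hmgcs1, Idi1 and Fdps in STAT5 cKO macrophages. In STAT5 fl/fl macrophages the latter 3 did not keep theirs in every fit that left out a mouse. A fit without mouse 112 or 113 holds a single STAT5 fl/fl library per treatment. Without mouse 112, Hmgcs1 (edgeR adjusted p = 0.0286), Idi1 (0.0234) and Fdps (0.164) were no longer called, and without mouse 113 Fdps was not (0.0361). The rmGM-CSF call of Hmgcs1 in STAT5 fl/fl macrophages was lost without mouse 112 (0.066) or mouse 113 (0.15), and in DESeq2 (0.018).

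**Figure D2:**
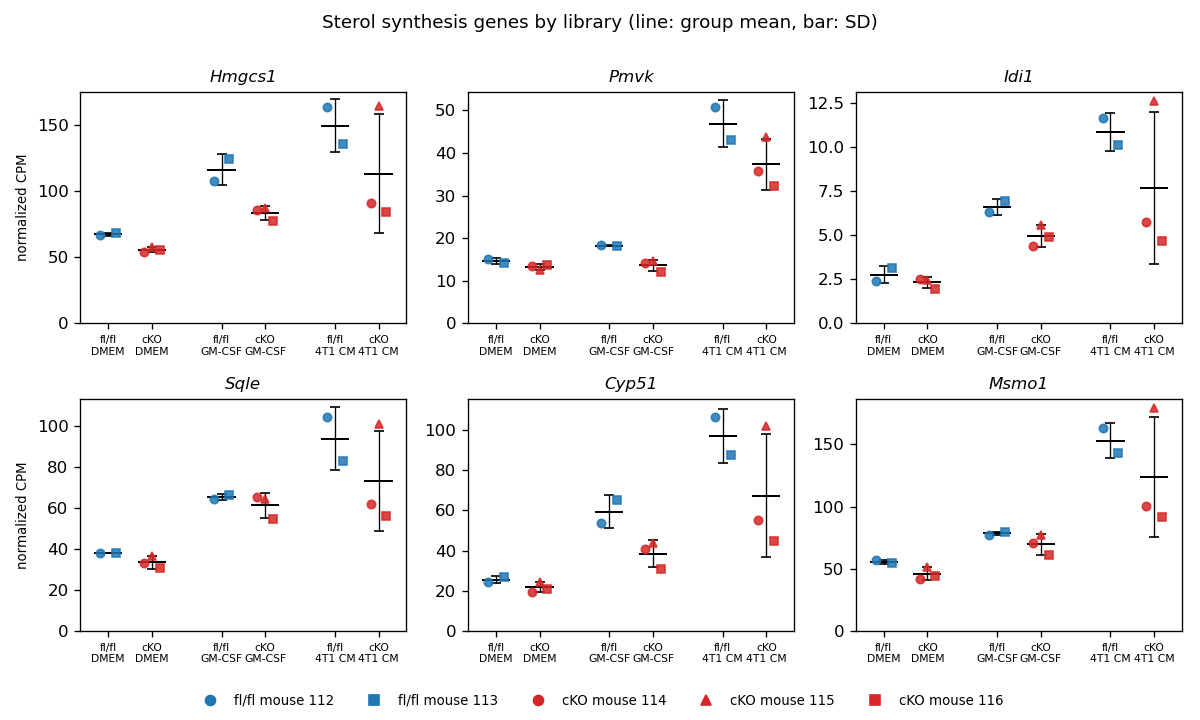
Normalized CPM of 6 sterol synthesis genes in each library (points; shape and color give the mouse), with the group mean (line) and SD (bar), for 2 STAT5 fl/fl and 3 STAT5 cKO mice per treatment. The group means of all 6 genes are highest with 4T1 CM in each genotype, and the triangle of mouse 115 lies apart from mice 114 and 116 there. Sqle in mouse 114 (62.0 against 65.6) and Idi1 in mouse 116 (4.67 against 4.92) are lower with 4T1 CM than with rmGM-CSF.

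The enzymes from squalene to cholesterol begin with Sqle, squalene epoxidase. It stood at 38.2 and 37.9 with DMEM, 64.3 and 66.6 with rmGM-CSF and 105 and 82.9 with 4T1 CM in STAT5 fl/fl macrophages, and at 33.2, 36.8 and 30.7 with DMEM, 65.6, 64.2 and 54.5 with rmGM-CSF and 62.0, 101 and 56.1 with 4T1 CM in STAT5 cKO macrophages. Each stimulated library was above each DMEM library. Both stimuli raised Sqle in both genotypes. For rmGM-CSF the values were 0.78 in STAT5 fl/fl (edgeR adjusted p = 0.00486) and 0.88 in STAT5 cKO macrophages (edgeR adjusted p = 0.000507). For 4T1 CM they were 1.30 ± 0.20 (edgeR adjusted p = 3.39e-05) and 1.12 ± 0.16 (edgeR adjusted p = 1.89e-05).

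Cyp51, the lanosterol demethylase, showed the same order of group means. It stood at 24.3 and 26.8 with DMEM, 53.7 and 65.2 with rmGM-CSF and 107 and 87.4 with 4T1 CM in STAT5 fl/fl macrophages. The STAT5 cKO libraries held 19.6, 24.5 and 21.1 with DMEM, 41.0, 43.7 and 31.0 with rmGM-CSF and 55.4, 102 and 44.9 with 4T1 CM. Again all stimulated libraries exceeded all DMEM libraries, and with 4T1 CM mouse 115 was close to mouse 112. The rise with 4T1 CM was 3.80-fold in STAT5 fl/fl (log2 fold change 1.92 ± 0.27, edgeR adjusted p = 1.42e-05) and 3.10-fold in STAT5 cKO macrophages (log2 fold change 1.63 ± 0.22, edgeR adjusted p = 1.02e-05). With rmGM-CSF it was 2.33-fold (log2 fold change 1.22 ± 0.27, edgeR adjusted p = 0.00182) and 1.78-fold (log2 fold change 0.84 ± 0.23, edgeR adjusted p = 0.00936).

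Msmo1, Nsdhl and Hsd17b7 work together to strip methyl groups from the sterol ring. Msmo1, the monooxygenase of the set, stood at 56.9 and 54.5 with DMEM, 77.5 and 79.3 with rmGM-CSF and 163 and 143 with 4T1 CM in STAT5 fl/fl macrophages, and at 41.6, 51.7 and 44.5 with DMEM, 70.9, 77.1 and 60.9 with rmGM-CSF and 101, 179 and 91.9 with 4T1 CM in STAT5 cKO macrophages. The libraries with 4T1 CM lay above the others in both genotypes (against DMEM, STAT5 fl/fl log2 fold change 1.46 ± 0.22, edgeR adjusted p = 2.80e-05; STAT5 cKO log2 fold change 1.43 ± 0.18, edgeR adjusted p = 3.57e-06). Msmo1 was also higher with 4T1 CM than with rmGM-CSF in both (STAT5 fl/fl log2 fold change 0.96 ± 0.22, edgeR adjusted p = 0.00164; STAT5 cKO log2 fold change 0.83 ± 0.18, edgeR adjusted p = 0.000959). Hsd17b7, the keto reductase, rose from 6.51 and 8.39 to 28.0 and 18.5 in STAT5 fl/fl macrophages (log2 fold change 1.64 ± 0.32, edgeR adjusted p = 0.00038) and from 5.70, 6.75 and 7.25 to 12.8, 26.0 and 9.97 in STAT5 cKO macrophages (log2 fold change 1.30 ± 0.27, edgeR adjusted p = 0.000726). With rmGM-CSF it stood at 11.6 and 12.6 in STAT5 fl/fl and at 9.23, 9.73 and 8.82 in STAT5 cKO macrophages, and no change was called. Nsdhl, the dehydrogenase, was called with 4T1 CM in both (log2 fold change 0.73 and 0.53, edgeR adjusted p = 0.00148 and 0.00366).

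Dhcr7, the reductase of the last step to cholesterol, was the enzyme called lower. It stood at 24.0 and 24.3 with DMEM, 17.8 and 17.0 with rmGM-CSF and 20.6 and 18.8 with 4T1 CM in STAT5 fl/fl macrophages, and at 20.3, 21.7 and 22.7 with DMEM, 15.8, 17.0 and 14.3 with rmGM-CSF and 15.7, 19.7 and 14.4 with 4T1 CM in STAT5 cKO macrophages. Each rmGM-CSF library lay below each DMEM library, and the fall was called in both genotypes (STAT5 fl/fl log2 fold change -0.48 ± 0.13, edgeR adjusted p = 0.0059; STAT5 cKO log2 fold change -0.45 ± 0.10, edgeR adjusted p = 0.00243). With 4T1 CM the fall was called in STAT5 cKO macrophages (log2 fold change -0.38 ± 0.10, edgeR adjusted p = 0.00453), and the STAT5 fl/fl value was -0.29 (edgeR adjusted p = 0.0558). Lss, which closes the sterol rings, the reductase Tm7sf2, the isomerase Ebp and the desaturase Sc5d were called in no comparison, with log2 changes of -0.02, 0.39, 0.21 and 0.53 for 4T1 CM in STAT5 fl/fl macrophages. Sc5d was called there with the replicate block (log2 fold change 0.52, edgeR adjusted p = 0.00681).

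Some of these calls fell short of the threshold when a mouse was left out, which need not mean that the change rested on that mouse. In STAT5 cKO macrophages the log2 fold change of Cyp51 with rmGM-CSF was 0.84 with all mice. It was 0.83 without mouse 112 or 113, which are STAT5 fl/fl mice. Without mouse 112 the 4T1 CM calls of Hsd17b7 (edgeR adjusted p = 0.0715) and Nsdhl (0.0846) were lost in STAT5 fl/fl macrophages, and without mouse 113 that of Nsdhl was (0.0185). The rmGM-CSF calls of Sqle, Cyp51 and Dhcr7 in STAT5 fl/fl macrophages were lost without mouse 112 (0.0649, 0.0368 and 0.0656) and without mouse 113 (0.0951, 0.0695 and 0.128), and that of Dhcr7 also without mouse 114 (0.0105). In STAT5 cKO macrophages the rmGM-CSF call of Cyp51 was lost without mouse 112 (0.0195), 113 (0.0191) or 114 (0.0795) and in DESeq2 (0.0148), and that of Dhcr7 without mouse 114 (0.0131) or 116 (0.0304). The 4T1 CM call of Dhcr7 there was lost without mouse 112 (0.0107), 113 (0.0104), 114 (0.0269) or 116 (0.0882), and that of Nsdhl without mouse 114 (0.021) or 115 (0.0139). Both were also lost in a fit of the compared libraries alone (0.0207 and 0.0197).

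As a group, the 18 enzymes from acetyl-CoA to cholesterol had a larger median change with 4T1 CM than with rmGM-CSF. Of the 18, 9 rose and 0 fell with 4T1 CM in STAT5 fl/fl macrophages, with a median log2 change of 0.87, and 9 rose and 1 fell in STAT5 cKO macrophages, with a median of 0.74, where 19.2% and 19.3% of all genes rose and 18.2% and 18.4% fell. With rmGM-CSF 3 rose and 1 fell in STAT5 fl/fl macrophages (median 0.23), and 2 rose and 1 fell in STAT5 cKO macrophages (median 0.11), which is near the 15.9% and 13.3% of all genes that rose. Between the stimuli, the log2 difference was above 0 for all 18 in both genotypes. In STAT5 cKO macrophages this rested in part on mouse 115, whose 4T1 CM library was the highest of 3 for all 18. Mice 114 and 116 were lower with 4T1 CM than with rmGM-CSF for Lss (27.8 and 22.1 against 31.8 and 27.7). For Pmvk they were higher (35.8 and 32.3 against 14.1 and 12.1). Without that library the log2 differences of Cyp51 and Nsdhl were 0.368 and 0.312, in place of 0.796 and 0.526. The STAT5 cKO medians above are with that library only. Called higher were 3 in STAT5 fl/fl macrophages (Pmvk, Msmo1 and Nsdhl), against 13.8% of all genes. In STAT5 cKO macrophages 4 were (the same 3 and Cyp51), against 16.6%. Pmvk kept these calls under all 14 alternatives, and Msmo1 did in STAT5 cKO macrophages. In STAT5 fl/fl macrophages Msmo1 was lost without mouse 112 (edgeR adjusted p = 0.0716) or 113 (0.0386) and Nsdhl without mouse 112 (0.169), 113 (0.0741) or 114 (0.0175). In STAT5 cKO macrophages Nsdhl kept its call under 8 and Cyp51 under 7 of the 14, each lost without mouse 112, 113, 114 or 115 (edgeR adjusted p from 0.0112 to 0.0251), and Cyp51 also in DESeq2 (0.0133). With the replicate block, Cyp51, Fdps, Hsd17b7 and Sqle were also called higher with 4T1 CM than with rmGM-CSF in STAT5 fl/fl macrophages (edgeR adjusted p from 0.00202 to 0.00507), and Fdps and Hsd17b7 in STAT5 cKO macrophages (edgeR adjusted p = 0.00344 and 0.00626). Across the 35 genes, the block raised the number called with rmGM-CSF against DMEM in STAT5 cKO macrophages from 8 to 13, adding Hmgcs1, Idi1, Msmo1, Stard4 and, in the downward direction, Abcg1, while the share of all genes called went from 23.5% to 25.7%. In STAT5 fl/fl macrophages it raised that number from 8 to 12 (28.5% to 30.8% of all genes), adding Idi1, Srebf1, Msmo1 (0.50, edgeR adjusted p = 0.00663) and Stard4 (0.56, edgeR adjusted p = 0.00228).

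Promoters of 28 of the 35 genes were found in the RefSeq promoter table (GRCm38.p6, 250 bases before to 50 after the start), 37 promoters in all among 32851. They are shown for 4 genes of this report because their letters can be set beside the changes above: Hmgcs1, Idi1 and Cyp51, which rose with 4T1 CM, and Mylip, which is described below. Capitals mark the NF-Y box (CCAAT, or ATTGG on the other strand) and the SRE-like motif TCACNCCAC, searched on both strands.
Hmgcs1 (chr13:119690101-119690400, + strand): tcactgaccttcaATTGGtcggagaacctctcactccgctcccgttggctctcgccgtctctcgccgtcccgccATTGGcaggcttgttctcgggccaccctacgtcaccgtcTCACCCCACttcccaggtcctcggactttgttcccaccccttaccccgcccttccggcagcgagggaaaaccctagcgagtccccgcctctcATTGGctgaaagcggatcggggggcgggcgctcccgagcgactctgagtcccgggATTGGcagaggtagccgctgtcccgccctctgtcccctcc
Idi1 (chr13:8885356-8885655, + strand): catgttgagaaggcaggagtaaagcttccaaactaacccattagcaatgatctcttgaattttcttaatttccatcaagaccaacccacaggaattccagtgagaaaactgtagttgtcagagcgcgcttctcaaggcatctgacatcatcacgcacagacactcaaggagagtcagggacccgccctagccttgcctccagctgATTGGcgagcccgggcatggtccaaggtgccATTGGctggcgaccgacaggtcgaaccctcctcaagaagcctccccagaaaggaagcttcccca
Cyp51 (chr5:4104648-4104947, - strand): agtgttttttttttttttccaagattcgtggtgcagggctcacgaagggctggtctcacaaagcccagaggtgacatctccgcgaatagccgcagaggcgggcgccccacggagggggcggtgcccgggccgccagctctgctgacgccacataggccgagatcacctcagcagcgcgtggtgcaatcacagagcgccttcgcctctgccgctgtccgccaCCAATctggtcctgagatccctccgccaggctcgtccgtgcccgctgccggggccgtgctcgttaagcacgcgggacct
Mylip (chr13:45389492-45389791, + strand): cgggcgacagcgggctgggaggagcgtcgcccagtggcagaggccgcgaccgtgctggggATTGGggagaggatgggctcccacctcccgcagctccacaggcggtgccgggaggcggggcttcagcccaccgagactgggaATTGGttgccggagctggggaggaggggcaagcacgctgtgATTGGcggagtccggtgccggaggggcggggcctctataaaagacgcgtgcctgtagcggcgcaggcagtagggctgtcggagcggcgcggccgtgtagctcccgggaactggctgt
The SRE-like motif was in 1 of the 37 promoters, that of Hmgcs1, with its first base 137 bases before the start (TCACCCCAC), and in 1.24% of all promoters. It lies between NF-Y boxes 176 and 45 bases before the start. The NF-Y box was in 22 of the 37 (59.5%; 37.4% of all promoters), the GC box GGGCGG in 26 (70.3%; 35.7%) and the E-box CACGTG in 7 (18.9%; 7.15%). The LXR motif, a pair of AGGTCA half-sites 4 bases apart with at most 2 mismatches, was in 1 promoter of Dhcr7 (3.02% of all). Several promoters can belong to 1 gene, and the windows of some overlap. These are matches of letters, not bound sites.

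Of the genes that control SREBP, Srebf2 encodes SREBP-2, the main activator of sterol synthesis genes. In STAT5 fl/fl macrophages it stood at 130.2 and 157 with DMEM, 232 and 243 with rmGM-CSF and 250.4 and 235 with 4T1 CM. Its STAT5 cKO levels were 132, 147 and 114 with DMEM, 200.3, 199.7 and 181 with rmGM-CSF and 196, 259.5 and 175 with 4T1 CM. Each stimulated library exceeded each DMEM library. The rise was called for rmGM-CSF in STAT5 fl/fl (log2 fold change 0.73 ± 0.14, edgeR adjusted p = 0.000631) and STAT5 cKO macrophages (log2 fold change 0.57 ± 0.12, edgeR adjusted p = 0.00122). For 4T1 CM it was of like size (STAT5 fl/fl log2 fold change 0.76 ± 0.14, edgeR adjusted p = 0.000307; STAT5 cKO log2 fold change 0.68 ± 0.12, edgeR adjusted p = 0.000113), and the log2 difference between the stimuli was 0.03 and 0.12, neither called.

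Srebf1 encodes SREBP-1, which drives fatty acid synthesis genes and is itself an LXR target. It stood at 77.1 and 87.9 with DMEM, 102 and 99.7 with rmGM-CSF and 127 and 133 with 4T1 CM in STAT5 fl/fl macrophages, and at 92.3, 98.8 and 87.6 with DMEM, 118, 109.6 and 114 with rmGM-CSF and 140.2, 147 and 125 with 4T1 CM in STAT5 cKO macrophages. The order was DMEM, rmGM-CSF, 4T1 CM with no overlap within a genotype. The step to 4T1 CM was called in both (STAT5 fl/fl log2 fold change 0.65 ± 0.084, edgeR adjusted p = 5.53e-06; STAT5 cKO log2 fold change 0.56 ± 0.068, edgeR adjusted p = 2.37e-06). With rmGM-CSF it was called in STAT5 cKO macrophages (log2 fold change 0.30 ± 0.069, edgeR adjusted p = 0.00278), and in STAT5 fl/fl macrophages the nearly equal value of 0.29 missed the threshold (edgeR adjusted p = 0.0112; called with the replicate block, 0.29, edgeR adjusted p = 0.00572). Srebf1 was higher with 4T1 CM than with rmGM-CSF in STAT5 fl/fl (log2 fold change 0.36 ± 0.084, edgeR adjusted p = 0.00227) and STAT5 cKO macrophages (log2 fold change 0.27 ± 0.068, edgeR adjusted p = 0.00398).

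Insig1, which holds SCAP in the endoplasmic reticulum and is a known SREBP target, was called in no comparison. It stood at 84.4 and 85.4 with DMEM, 96.5 and 96.3 with rmGM-CSF and 113 and 85.7 with 4T1 CM in STAT5 fl/fl macrophages, and at 55.3, 65.3 and 57.1 with DMEM, 76.7, 75.6 and 66.8 with rmGM-CSF and 71.7, 108 and 57.0 with 4T1 CM in STAT5 cKO macrophages. All STAT5 cKO libraries were below both STAT5 fl/fl libraries with DMEM and with rmGM-CSF, with log2 differences of -0.52 and -0.40 (edgeR adjusted p = 0.0889 and 0.144). The DMEM difference was called in a fit of the DMEM libraries alone (edgeR adjusted p = 0.00272) and in a fit without the 4T1 CM library of mouse 115 (edgeR adjusted p = 0.00711), each of which estimates the spread without that library. The rmGM-CSF difference was called in a fit of its own libraries (edgeR adjusted p = 0.000699).

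Stard4, which moves cholesterol between membranes, rose with 4T1 CM in both genotypes (STAT5 fl/fl log2 fold change 0.94 ± 0.19, edgeR adjusted p = 0.000625; STAT5 cKO log2 fold change 0.75 ± 0.16, edgeR adjusted p = 0.000905). Scap, the carrier of SREBP, fell with 4T1 CM in STAT5 fl/fl macrophages (log2 fold change -0.32 ± 0.08, edgeR adjusted p = 0.00293), and the STAT5 cKO value was -0.17. Insig2, the second holder of SCAP, was called in no comparison, with log2 changes from -0.20 to 0.11 over the 6 treatment comparisons. Without mouse 112 the STAT5 fl/fl calls for 4T1 CM of Srebf2 (edgeR adjusted p = 0.0465), Stard4 (0.0896) and Scap (0.0214) were lost, and without mouse 113 that of Scap (0.0701). The rmGM-CSF call of Srebf2 in STAT5 fl/fl macrophages was lost without mouse 112 (0.0437) or 113 (0.013), and in STAT5 cKO macrophages that of Srebf2 was lost without mouse 114 (0.0166) and that of Srebf1 without mouse 114 (0.0425) or 116 (0.0246). The difference of Srebf1 between the stimuli was lost without mouse 112 (0.0177) or 113 (0.0829) in STAT5 fl/fl and without mouse 114 (0.0233) or 115 (0.0828) in STAT5 cKO macrophages.

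Nr1h3, which encodes LXR alpha, rose with rmGM-CSF in both genotypes. It stood at 23.1 and 21.1 with DMEM, 52.5 and 41.2 with rmGM-CSF and 22.2 and 21.9 with 4T1 CM in STAT5 fl/fl macrophages, and at 24.8, 25.9 and 27.0 with DMEM, 56.2, 52.0 and 63.5 with rmGM-CSF and 22.1, 24.5 and 25.4 with 4T1 CM in STAT5 cKO macrophages. The 5 rmGM-CSF libraries lay above the other 10, at 2.12-fold the DMEM level in STAT5 fl/fl (log2 fold change 1.08 ± 0.12, edgeR adjusted p = 9.76e-07) and 2.20-fold in STAT5 cKO macrophages (log2 fold change 1.14 ± 0.092, edgeR adjusted p = 3.40e-08). Against rmGM-CSF, 4T1 CM was lower in both (STAT5 fl/fl log2 fold change -1.09 ± 0.12, edgeR adjusted p = 1.08e-06; STAT5 cKO log2 fold change -1.25 ± 0.093, edgeR adjusted p = 7.09e-09), and 4T1 CM against DMEM was not called in either (edgeR adjusted p = 0.987 and 0.369). The difference between the genotypes in the rmGM-CSF response was 0.06 (edgeR adjusted p = 0.937). Nr1h2, for LXR beta, rose with 4T1 CM in STAT5 fl/fl macrophages (log2 fold change 0.33 ± 0.089, edgeR adjusted p = 0.00493), a call lost without mouse 112 (edgeR adjusted p = 0.0781) or 113 (0.0123), and its STAT5 cKO value was 0.17.

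The 3 remaining genes of this set, Abcg1, Abca1 and Mylip, were the ones called between the genotypes, and they differed in direction. They are known LXR targets, but Srebf1, also an LXR target, was not called between the genotypes (with rmGM-CSF, log2 fold change 0.17, edgeR adjusted p = 0.145). The calls are therefore not read as a trait of LXR targets. With rmGM-CSF, 2 genes were higher and 1 lower in STAT5 cKO macrophages than in STAT5 fl/fl macrophages (3.57% and 6.24% of all tested genes). With 4T1 CM 0 were higher and 1 lower (4.13% and 3.57%). The rmGM-CSF response itself differed between the genotypes for 2 genes, 1 in each direction (0.884% of all genes upward and 2.22% downward).

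Abcg1 (ENSMUSG00000024030, chr17:31057675-31117988, + strand), which moves cholesterol to high-density lipoprotein, had the highest mean of the 35 genes per length of exon over all libraries, 67.5 RPKM. It stood at 559 and 577 with DMEM, 836 and 874 with rmGM-CSF and 385 and 429 with 4T1 CM in STAT5 fl/fl macrophages. In STAT5 cKO macrophages it stood at 541, 514 and 525 with DMEM, 435, 415 and 455 with rmGM-CSF and 312, 229 and 304 with 4T1 CM. The STAT5 fl/fl libraries rose with rmGM-CSF and the STAT5 cKO libraries came out lower than with DMEM, so that the genotypes were far apart there. The STAT5 fl/fl rise was 1.5-fold (log2 fold change 0.59 ± 0.11, edgeR adjusted p = 0.000255), and the STAT5 cKO value was -0.28 (edgeR adjusted p = 0.0195; with the replicate block -0.28, edgeR adjusted p = 0.00334). With rmGM-CSF the STAT5 cKO level was 1.97-fold lower than that of STAT5 fl/fl (log2 fold change -0.98 ± 0.095, edgeR adjusted p = 1.0e-06), and the difference between the responses was called (log2 difference -0.87 ± 0.14, edgeR adjusted p = 0.000647). With 4T1 CM Abcg1 fell below DMEM in both genotypes (STAT5 fl/fl log2 fold change -0.48 ± 0.11, edgeR adjusted p = 0.00115; STAT5 cKO log2 fold change -0.90 ± 0.087, edgeR adjusted p = 1.46e-07) and was again lower in STAT5 cKO macrophages (log2 fold change -0.53 ± 0.096, edgeR adjusted p = 0.00111). Mouse 115 had the lowest level of all 15 libraries there, and without that library the difference was -0.40 ± 0.067, edgeR adjusted p = 0.000584.

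Mylip (ENSMUSG00000038175, chr13:45389742-45412022, + strand) encodes the ubiquitin ligase that marks lipoprotein receptors for breakdown. It stood at 97.2 and 97.1 with DMEM, 43.4 and 37.7 with rmGM-CSF and 139.8 and 133 with 4T1 CM in STAT5 fl/fl macrophages, and at 99.7, 110.0 and 111 with DMEM, 86.7, 89.5 and 91.3 with rmGM-CSF and 158, 131 and 155 with 4T1 CM in STAT5 cKO macrophages. The pair of STAT5 fl/fl libraries with rmGM-CSF lay below all 13 others. The fall was 2.40-fold in STAT5 fl/fl (log2 fold change -1.26 ± 0.094, edgeR adjusted p = 8.63e-09) and 1.2-fold in STAT5 cKO macrophages (log2 fold change -0.26 ± 0.073, edgeR adjusted p = 0.00939). The difference between these responses was called (log2 difference 1.0 ± 0.12, edgeR adjusted p = 3.55e-05), as was the level with rmGM-CSF, 2.20-fold higher in STAT5 cKO macrophages (log2 fold change 1.14 ± 0.088, edgeR adjusted p = 5.58e-08). With 4T1 CM Mylip rose above DMEM in both genotypes (STAT5 fl/fl log2 fold change 0.49 ± 0.088, edgeR adjusted p = 0.000184; STAT5 cKO log2 fold change 0.47 ± 0.071, edgeR adjusted p = 3.02e-05), so that the stimuli moved it in opposite directions (4T1 CM against rmGM-CSF, STAT5 fl/fl log2 fold change 1.75 ± 0.094, edgeR adjusted p = 1.60e-10; STAT5 cKO log2 fold change 0.73 ± 0.072, edgeR adjusted p = 2.73e-07).

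Abca1 (ENSMUSG00000015243, chr4:53030787-53159895, - strand), which loads cholesterol onto apolipoprotein A-I, answered 4T1 CM in both genotypes. It stood at 411 and 396 with DMEM, 359 and 351 with rmGM-CSF and 867 and 870.4 with 4T1 CM in STAT5 fl/fl macrophages, and at 510.1, 391 and 368 with DMEM, 607, 526 and 519 with rmGM-CSF and 921, 1021 and 1003 with 4T1 CM in STAT5 cKO macrophages. All 5 libraries with 4T1 CM lay above the other 10 (against DMEM, STAT5 fl/fl log2 fold change 1.11 ± 0.12, edgeR adjusted p = 4.88e-07; STAT5 cKO log2 fold change 1.22 ± 0.095, edgeR adjusted p = 9.61e-09; against rmGM-CSF, 1.29 and 0.83). With rmGM-CSF the STAT5 cKO libraries rose (log2 fold change 0.38 ± 0.094, edgeR adjusted p = 0.00452) while the STAT5 fl/fl value was -0.18 (edgeR adjusted p = 0.228). The level with rmGM-CSF was 1.55-fold higher in STAT5 cKO macrophages (log2 fold change 0.63 ± 0.11, edgeR adjusted p = 0.000453), but the difference between the responses was not called (0.57 ± 0.15, edgeR adjusted p = 0.0359). It was called with the replicate block (log2 difference 0.57, edgeR adjusted p = 0.00864) and in DESeq2 (adjusted p = 0.00401). In STAT5 cKO macrophages with DMEM, mouse 114 was the highest. Without this mouse the log2 difference between the responses was 0.65 and was called (edgeR adjusted p = 0.000542), while fits without another mouse did not call it. Leaving out the mouse with the highest DMEM level lowers the baseline of the STAT5 cKO response. This call is therefore no test of the difference.

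Leaving out a mouse took several of these calls short of the threshold, also where the size of the change stayed alike. The log2 response difference of Abcg1 was -0.87 with all mice, -0.88 without mouse 112 and -0.86 without mouse 113. The response difference of Abcg1 was lost without mouse 112 (edgeR adjusted p = 0.0205) or 113 (0.0294), as were its rise with rmGM-CSF (0.0149 and 0.0192) and its fall with 4T1 CM (0.0511 and 0.0215) in STAT5 fl/fl macrophages. Its genotype difference with 4T1 CM was lost without mouse 113 (0.057) and in a fit of the 4T1 CM libraries alone (0.0333). The genotype difference of Abca1 with rmGM-CSF was lost without mouse 112 (0.0154) or 113 (0.0252), and its rise in STAT5 cKO macrophages without mouse 112, 113, 115 or 116 (0.0131 to 0.0364). The small fall of Mylip in STAT5 cKO macrophages was lost without any 1 of the 5 mice (0.0145 to 0.0609), and its 4T1 CM rise in STAT5 fl/fl macrophages without mouse 112 (0.0132). The response difference, the STAT5 fl/fl fall and the rmGM-CSF genotype difference of Mylip, and the rmGM-CSF genotype difference of Abcg1, kept their calls under every alternative that was run.

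**Figure D3:**
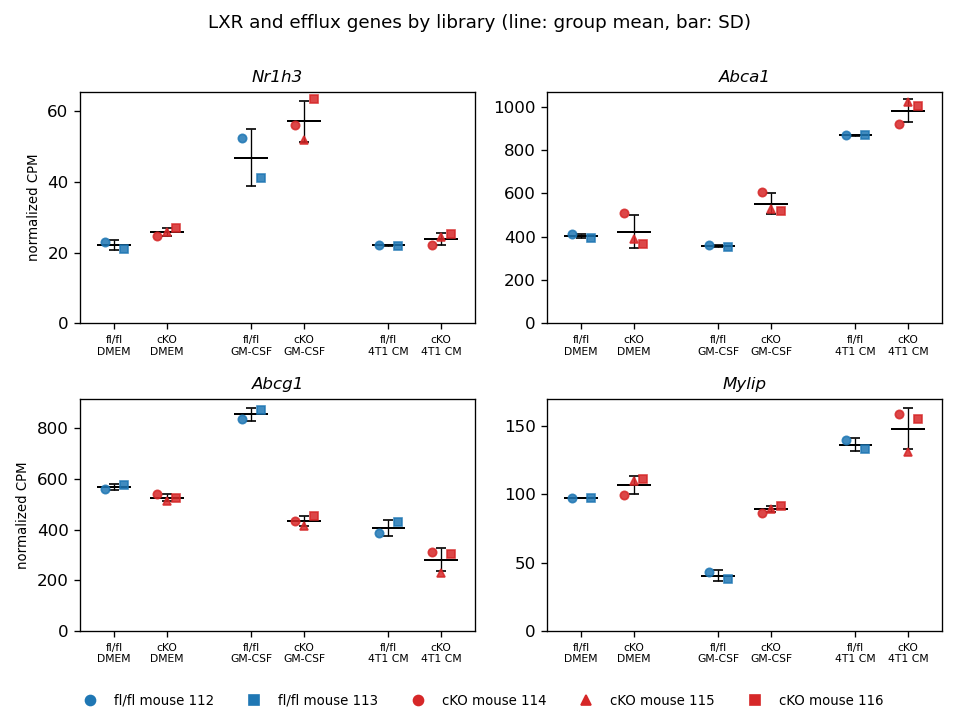
Normalized CPM of Nr1h3, Abca1, Abcg1 and Mylip in each library (points; shape and color give the mouse), with the group mean (line) and SD (bar). With rmGM-CSF Nr1h3 is high in both genotypes, while Abcg1 is highest and Mylip lowest in the pair of STAT5 fl/fl libraries, at 836 and 874 and at 43.4 and 37.7 normalized CPM.

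Of the 6 genes of fatty acid synthesis, the desaturases Scd1 and Scd2 were called. Scd2 (ENSMUSG00000025203, chr19:44293674-44306864, + strand), a stearoyl-CoA desaturase that puts the double bond into fatty acids, had the largest change of the 35 genes. It stood at 37.8 and 40.1 with DMEM, 50.7 and 47.3 with rmGM-CSF and 346 and 276 with 4T1 CM in STAT5 fl/fl macrophages, and at 39.9, 34.0 and 34.7 with DMEM, 50.5, 38.8 and 35.3 with rmGM-CSF and 195, 302 and 176 with 4T1 CM in STAT5 cKO macrophages. All 5 libraries with 4T1 CM were more than 3-fold above every other library, and among the STAT5 cKO mice 115 was the highest. The rise over DMEM was 7.98-fold in STAT5 fl/fl (log2 fold change 3.0 ± 0.21, edgeR adjusted p = 2.63e-09) and 6.2-fold in STAT5 cKO macrophages (log2 fold change 2.63 ± 0.17, edgeR adjusted p = 7.52e-10). Against rmGM-CSF it was 6.34-fold (log2 fold change 2.67 ± 0.21, edgeR adjusted p = 1.83e-08) and 5.38-fold (log2 fold change 2.43 ± 0.17, edgeR adjusted p = 3.10e-09).

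Scd1, its paralog, followed at a lower level, with 5.46 and 5.78 with DMEM, 5.42 and 6.39 with rmGM-CSF and 18 and 11.9 with 4T1 CM in STAT5 fl/fl macrophages and 4.28, 3.31 and 2.72 with DMEM, 4.17, 4.02 and 3.20 with rmGM-CSF and 10.9, 14.1 and 7.79 with 4T1 CM in STAT5 cKO macrophages. The 4T1 CM libraries lay above all others (against DMEM, STAT5 fl/fl log2 fold change 1.42 ± 0.24, edgeR adjusted p = 0.000113; STAT5 cKO log2 fold change 1.68 ± 0.22, edgeR adjusted p = 7.04e-06; against rmGM-CSF, STAT5 fl/fl log2 fold change 1.34 ± 0.25, edgeR adjusted p = 0.000386; STAT5 cKO log2 fold change 1.51 ± 0.23, edgeR adjusted p = 3.48e-05). Without mouse 112 the STAT5 fl/fl calls were lost (edgeR adjusted p = 0.0285 against DMEM and 0.0651 against rmGM-CSF). Scd1 and Scd2 are similar in sequence, so the split of reads between them is uncertain. Acly, which makes cytosolic acetyl-CoA, Acaca, acetyl-CoA carboxylase, Fasn, fatty acid synthase, and the elongase Elovl6 were called in no comparison. Their log2 changes with 4T1 CM against DMEM were -0.09, -0.35, -0.08 and 0.18 in STAT5 fl/fl macrophages and 0.03, -0.09, -0.22 and 0.18 in STAT5 cKO macrophages. Fasn was lower with 4T1 CM than with rmGM-CSF in STAT5 cKO macrophages with the replicate block (log2 fold change -0.48, edgeR adjusted p = 0.00218).

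**Figure D4:**
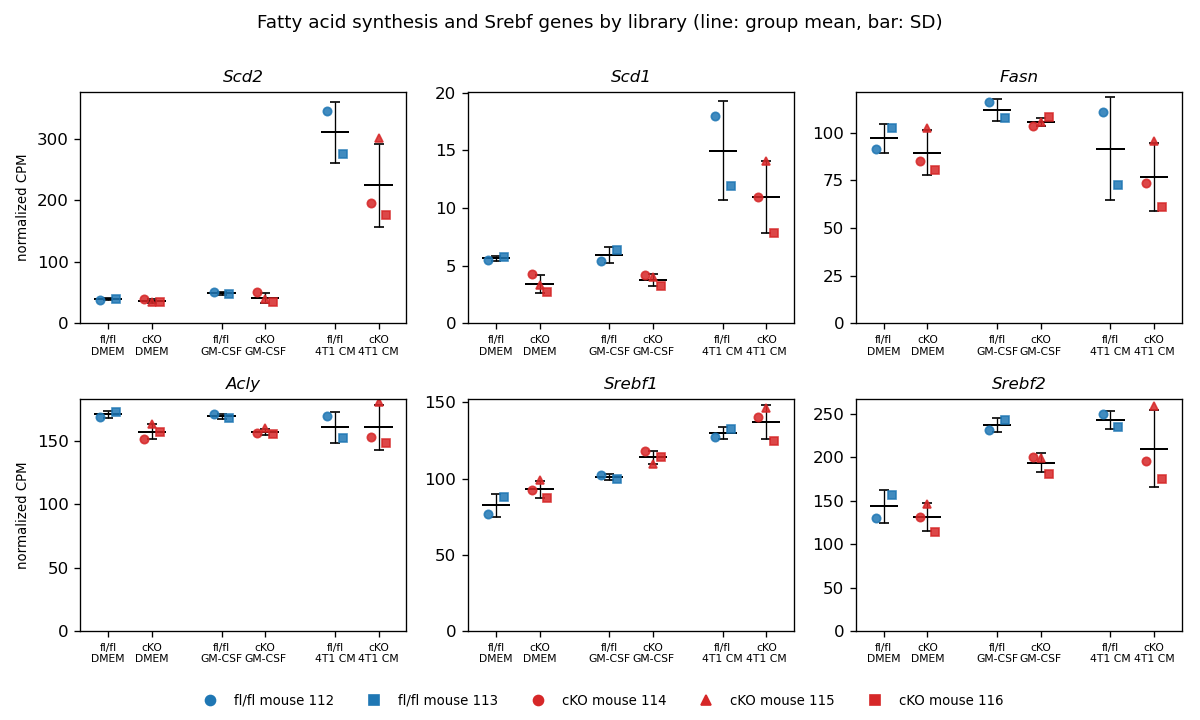
Normalized CPM of 4 fatty acid synthesis genes and of Srebf1 and Srebf2 in each library (points; shape and color give the mouse), with the group mean (line) and SD (bar). Scd2 and Scd1 stand out with 4T1 CM, while Fasn and Acly were called in no comparison; Srebf2 is raised to a like level by both stimuli.

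Between the genotypes with DMEM, 0 of the 35 genes were called in either direction (0.938% of all genes were higher and 1.55% lower in STAT5 cKO macrophages). At an unadjusted p under 0.05 there were 5, and DESeq2 and limma voom with the mouse as a random effect also called 0. The log2 difference was below 0 for 27 of the 35 genes with DMEM (median -0.13), for 29 with rmGM-CSF (median -0.16) and for 28 with 4T1 CM (median -0.26), against medians of 0.00, 0.00 and 0.01 over all tested genes. For the 18 enzymes alone the medians were -0.17, -0.30 and -0.32, and none of them was called in the fit of all libraries. The same STAT5 cKO mice gave all 3 treatments, so these medians are not independent of each other. A fit of the rmGM-CSF libraries alone called 1725 of 12199 tested genes in either direction, against 1275 of 13005 with all libraries. Among them, 4 enzymes were called lower in STAT5 cKO macrophages. They were Hmgcs1 (-0.47, edgeR adjusted p = 0.000318), Fdft1 (-0.53, 0.00129), Sc5d (-0.40, 0.00164) and Cyp51 (-0.61, 0.00182). Srebf2 was called lower there too (-0.29, edgeR adjusted p = 0.0026). The like fits called no enzyme with DMEM or 4T1 CM, and the count of 4 is not read as a trait of the enzymes.

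With 4T1 CM the STAT5 cKO mice did not behave alike. Set against the STAT5 fl/fl mean of the same treatment, the median log2 ratio over the 18 enzymes was -0.55 in mouse 114, 0.15 in mouse 115 and -0.74 in mouse 116, while the STAT5 fl/fl libraries themselves were at 0.16 and -0.17. Mouse 115 was the highest of the 3 STAT5 cKO libraries for 18 of the 18 enzymes and for 34.9% of all 13005 tested genes. With DMEM the ratios of mice 114, 115 and 116 were -0.20, -0.12 and -0.23, and with rmGM-CSF -0.20, -0.26 and -0.42, and mouse 115 was the highest for 9 and 12 of the 18.

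The calls of this comparison depended on that library. In a fit of the other 14 libraries, added after the values were seen, 16 of the 35 genes were called lower and 0 higher in STAT5 cKO macrophages than in STAT5 fl/fl macrophages with 4T1 CM, where 3.31% of all genes were lower and 3.73% higher, in place of 1 lower. They were 12 of the 18 enzymes, Insig1, Stard4, Scd2 and Abcg1. Fdft1 changed the most (log2 fold change -1.13 ± 0.17, edgeR adjusted p = 0.000244), followed by Idi1 (-1.06 ± 0.16, edgeR adjusted p = 0.000218), Hsd17b7 (-1.03 ± 0.17, edgeR adjusted p = 0.000534) and Cyp51 (-0.95 ± 0.14, edgeR adjusted p = 0.000215). Hmgcs1 had the smallest adjusted p (-0.77 ± 0.09, edgeR adjusted p = 2.00e-05), and Scd2 was at -0.74 ± 0.12, edgeR adjusted p = 0.000553. With all 15 libraries the values of these genes were -0.52, -0.51, -0.52, -0.53, -0.40 and -0.47, with edgeR adjusted p from 0.0751 to 0.262. Leaving out all 3 libraries of mouse 115 gave 16 genes as well, and leaving out mouse 114 or 116 gave 1. With 2 mice left in each genotype these calls describe those mice. The library was left out because it was the highest for these enzymes, so lower STAT5 cKO values without it follow from that choice. The calls and p-values of this fit are therefore no test of a genotype difference. The same library also bore on other comparisons. Without it, Cyp51 and Hmgcs1 were called lower in STAT5 cKO macrophages with rmGM-CSF (edgeR adjusted p = 0.00373 and 0.000553), which raised that count from 3 to 5 (9.8% to 11% of all genes called). In STAT5 cKO macrophages the calls of Nsdhl with 4T1 CM against DMEM (edgeR adjusted p = 0.0247) and of Nsdhl, Cyp51 and Srebf1 against rmGM-CSF (0.0339, 0.0378 and 0.0219) were lost. The number called with rmGM-CSF rose from 8 to 12 in STAT5 fl/fl macrophages (28.5% to 29.8% of all genes) and from 8 to 13 in STAT5 cKO macrophages (23.5% to 24.9%), and the number called between the stimuli in STAT5 fl/fl macrophages from 11 to 18 (30.5% to 32% of all genes). Macrophage markers moved with this library. It was the highest of the 3 STAT5 cKO libraries with 4T1 CM for 7 of the 10 markers, with a summed level of 47360 against 37582 and 38359 normalized CPM, and Adgre1 stood at 1761 against 1013 and 996, Lyz2 at 34471 against 26117 and 27048 and Itgam at 238 against 168 and 190.2. Their part in the result was not tested. The library's total of 22261354 counts and its factor of 0.952 were within the range of the others.

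**Figure D5:**
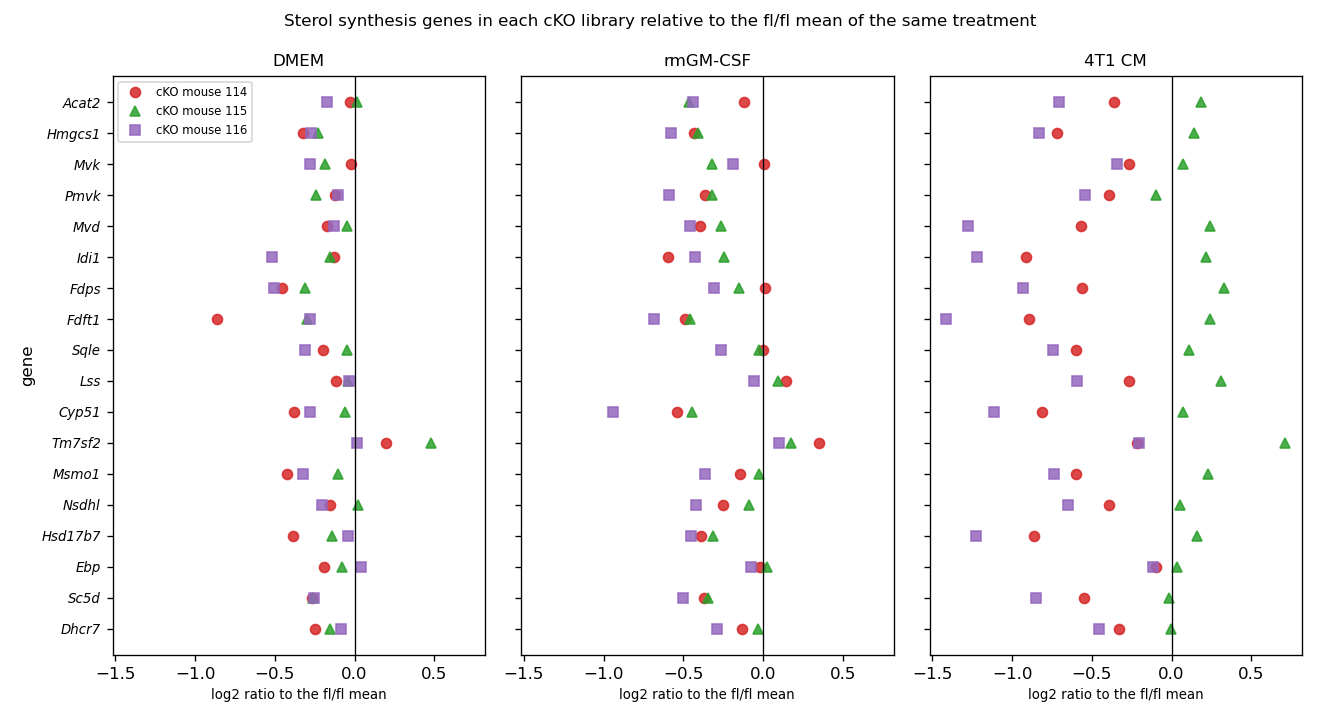
Log2 ratio of each STAT5 cKO library to the STAT5 fl/fl mean of the same treatment (x axis) for the 18 enzymes from acetyl-CoA to cholesterol (y axis), in 3 panels for DMEM, rmGM-CSF and 4T1 CM. With 4T1 CM the triangles of mouse 115 lie near or above 0 while mice 114 and 116 lie below it for all 18 genes; the mice are closer together in the other panels.

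The response to 4T1 CM was not called different between the genotypes for any of the 35 genes (0 higher and 0 lower, against 0.73% and 0.538% of all genes). At an unadjusted p under 0.05 there was 1, Abcg1 (-0.42 ± 0.14, edgeR adjusted p = 0.13), and DESeq2 also called 0. The count stayed at 0 without the 4T1 CM library of mouse 115. For the 18 enzymes the log2 difference of the responses ranged from -0.34 to 0.13, with a median of -0.15.

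Of 37 related genes of sterol handling, LXR targets and fatty acid metabolism, 5 rose and 10 fell with 4T1 CM in STAT5 fl/fl macrophages and 9 rose and 12 fell in STAT5 cKO macrophages, with medians of 0.06 and -0.01. Over all genes 19.2% and 19.3% rose and 18.2% and 18.4% fell. With rmGM-CSF 3 rose and 8 fell in STAT5 fl/fl and 3 rose and 5 fell in STAT5 cKO macrophages, against 15.9% and 12.6% and 13.3% and 10.2% of all genes. Ch25h, which makes an oxysterol that blocks SREBP activation, rose with rmGM-CSF (STAT5 fl/fl log2 fold change 4.36 ± 0.22, edgeR adjusted p = 4.73e-11; STAT5 cKO log2 fold change 3.31 ± 0.18, edgeR adjusted p = 2.68e-10) and with 4T1 CM (STAT5 fl/fl log2 fold change 3.52 ± 0.23, edgeR adjusted p = 1.27e-09; STAT5 cKO log2 fold change 2.27 ± 0.20, edgeR adjusted p = 5.21e-08). It was lower in STAT5 cKO macrophages with rmGM-CSF (log2 fold change -0.83 ± 0.14, edgeR adjusted p = 0.000381) and with 4T1 CM (log2 fold change -1.03 ± 0.16, edgeR adjusted p = 0.000243). Lpin1, a phosphatidate phosphatase, fell with 4T1 CM (STAT5 fl/fl log2 fold change -2.22 ± 0.17, edgeR adjusted p = 1.05e-08; STAT5 cKO log2 fold change -1.58 ± 0.15, edgeR adjusted p = 1.69e-07) and was lower in STAT5 cKO macrophages with DMEM (log2 fold change -0.87 ± 0.13, edgeR adjusted p = 0.000719). Between the genotypes, 0 related genes were higher and 2 lower with DMEM (0.938% and 1.55% of all genes), 1 was higher and 2 lower with rmGM-CSF (3.57% and 6.24%), and 1 was higher and 4 lower with 4T1 CM (4.13% and 3.57%).

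Per length of exon, Abcg1, Abca1 and Mylip had the highest mean levels of the 35 when all libraries were pooled. Mean RPKM over the 15 libraries was 67.5, 58.7 and 32.6, followed by Acly at 30.6 and Nr1h2 at 29.0. The lowest were Acaca at 1.43, Tm7sf2 at 1.32 and Elovl6 at 0.478 RPKM. Among the sterol enzymes Hmgcs1 (20.7 RPKM), Ebp (16.9) and Msmo1 (14) led. With 4T1 CM in STAT5 fl/fl macrophages Abca1 was first at 83.8 ± 0.21 RPKM (SD, n = 2), followed by Scd2 at 56.9 ± 9.07 and Abcg1 at 55.8 ± 4.23, which overlapped each other. The order thus varied by group. Abca1 was also above Abcg1 with 4T1 CM in STAT5 cKO macrophages (94.7 ± 5.16 against 38.6 ± 6.22 RPKM, n = 3), and with rmGM-CSF in STAT5 fl/fl macrophages Mylip ranked 13 of 35 at 12.5 ± 1.24 RPKM (n = 2), below Acly at 32.1 ± 0.41 and Srebf2 at 33.1 ± 1.14.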

How the data were processed

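RNA of 15 BMDM libraries was measured by RNA-seq. The authors trimmed the reads with Trimmomatic 0.33, aligned them with HISAT2 2.1.0 and deposited raw fragment counts per gene from featureCounts 1.6.2 (strand setting 2, minimum mapping quality 10, Ensembl release 99), so fragments of poor mapping quality do not enter the counts of genes with close paralogs. The deposited table also holds each gene's exon length in bases, which was used for RPKM. Of 55385 gene IDs, 55144 matched a symbol. Per the methods, the authors compared the genotypes within each treatment with a linear model in edgeR, relative log expression normalization and Benjamini-Hochberg adjustment; the form of the test is not given in the sources used here.

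From the deposited counts, genes were kept if their CPM exceeded 1 in 2 or more libraries, and they were fitted across all 6 groups with edgeR 4.0.16 in R 4.3.3 (relative log expression factors of 0.945 to 1.08, quasi-likelihood F test, Benjamini-Hochberg adjustment over 13005 genes, threshold 0.01). The standard error is the log2 fold change divided by the root of F. The biological coefficient of variation was 0.0787. The floor of 3 counts was 0.131 to 0.187 CPM, and such floors cover counting error only. The p-values of this fit measure the spread between libraries within the groups, pooled over all 6 groups. The fit has no term for the mouse, so the libraries of 1 mouse count as independent. DESeq2 1.42.0, limma 3.58.1, other normalizations, filters and tests, fits of the compared libraries alone and fits without each mouse were run as alternatives. The scripts were tested on simulated counts. Figures were drawn with matplotlib 3.10.9.

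The mouse number pairs libraries across treatments, since same-numbered libraries come from the same mouse: their deviations from the group means correlated at a mean of 0.142 (6 pairs in STAT5 fl/fl, 0.0926 to 0.213) and 0.157 (9 pairs in STAT5 cKO, 0.0548 to 0.214). With 2 STAT5 fl/fl mice the deviations mirror each other, so the values of mouse 113 repeat those of mouse 112. Pairs of different STAT5 cKO mice had a mean of -0.0784 (18 pairs, -0.238 to 0.149). The members and lists were chosen with earlier results of these data known. Values in every library are given for up to 8 members per comparison, those called with the largest change, for Insig1, Srebf1, Srebf2, Abca1 and Scd2 whatever their call, and for Fdft1, chosen after its values were seen. Of the related genes at most 2 are named per comparison. Promoter sequences are from RefSeq.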

Additional observations from a re-analysis of the deposited data

Results flagged for a closer look

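The response to rmGM-CSF differed between the genotypes, by a test of the difference itself, for 2 of the 35 genes. For Mylip the log2 response of STAT5 cKO macrophages exceeded that of STAT5 fl/fl macrophages by 1.0 ± 0.12 (edgeR adjusted p = 3.55e-05). For Abcg1 the difference was -0.87 ± 0.14 (edgeR adjusted p = 0.000647). With rmGM-CSF, 4 of the 10 macrophage markers were above 0 and 6 below it in STAT5 cKO against STAT5 fl/fl macrophages (median log2 difference -0.05).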

How the results depend on the processing

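Of the recomputed counts of called genes, 126 stayed within 1.5 times the reported count and 26 did not. Of the values of single genes, 1510 stayed on the same side of the threshold, 95 fell short of it, 21 newly passed it and 0 reversed a call. A changed sign in a value called under neither fit was counted among the 1510. An example is Insig1 between the stimuli in STAT5 fl/fl macrophages, with log2 values from -0.17 to 0.23. Fits of the compared libraries alone called 1 gene between the genotypes in DMEM, 9 in rmGM-CSF and 0 in 4T1 CM. Over all tested genes they called 277 of 12405, 1725 of 12199 and 280 of 12476. The fit of all libraries called 324, 1275 and 1001 of 13005 there. With rmGM-CSF against DMEM, fits of the compared libraries alone called 15 in STAT5 fl/fl and 14 in STAT5 cKO macrophages. Over all tested genes these were 4037 of 12307 and 3200 of 12392, against 3704 and 3053 of 13005 with all libraries. Leaving out each mouse in turn, or the 4T1 CM library of mouse 115 alone, gave 0 to 1, 2 to 5 and 0 to 16 genes between the genotypes, 2 to 12 and 3 to 13 with rmGM-CSF in STAT5 fl/fl and STAT5 cKO macrophages, 7 to 21 with 4T1 CM and 6 to 18 between the stimuli in STAT5 fl/fl macrophages, and 1 to 3 for the rmGM-CSF response difference. The number of all tested genes called also differed between these fits, so the ranges alone do not set these genes apart. The cause of the ranges was not tested. With the replicate block, which pairs the libraries of a mouse, 13 genes were called with rmGM-CSF in STAT5 cKO macrophages; beyond the calls it added, which are given with the results, it changed no other call. The block could not be fitted with the genotype, since no mouse has both. The legacy form of the fit and the fit without the 4T1 CM library of mouse 115 were chosen after seeing the data. With 2 STAT5 fl/fl mice, the spread rests mostly on pooling over groups, and leaving out 1 mouse can lose a call. This held also for comparisons that the mouse was not part of. Elovl6 and other low genes are the least precise, and no statement is made on whether uncalled genes did not change.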
